A study of Mus musculus with 6 samples.

Results

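Synovial tissue of mice with collagen-induced arthritis was compared between week 9 after immunization, named the peak of disease, and week 6, named its induction. The comparison takes the 2 arrays titled for week 9 against the 2 titled for week 6, which is 4 of the 6 arrays of the series, and covers every gene that passed a detection filter. The other 2 arrays, of week 15 and named resolution, serve only for the estimate of error and for a few levels given beside the comparison. All 3 groups hold male DBA/1 mice, an inbred strain, taken into the experiment at 6 to 8 weeks of age. Every animal had been immunized at the tail base with type II collagen of bovine origin emulsified in complete Freund's adjuvant and, 2 weeks later, boosted through a footpad with collagen in incomplete Freund's adjuvant, so the labels separate the groups by time only. The tissue was cut from around the ankles after skinning, the boosted hind foot was left out, and RNA came from pools of animals. Mice without immunization were not analysed here. Nothing in the labels tells if the arrays of a week hold RNA of separate pools. The p-values therefore cover the spread between these arrays and no more, and that spread may be technical.

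In this model, T and B cells primed against cartilage collagen lead to inflammation of the joint lining. The lining is a thin layer of macrophages and fibroblasts over a loose tissue with blood vessels, fat and matrix, and it is infiltrated by leukocytes during disease. Cytokines, chemokines and matrix proteases drive the damage, and a piece of tissue also carries the RNA of each resident cell type. In bulk tissue, fewer cells of a type and less RNA per cell cannot be told apart.

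Signals are log2 values after background correction, quantile normalization and an added offset, and a change is the week 9 mean minus the week 6 mean on that scale. Arrays of the same week correlated at r = 0.991 across genes at both times, with an SD of the log2 difference of 0.303 at week 9 and 0.299 at week 6. Of the probes, 48.5% and 47.9% were above background on the week 9 arrays, against 50.7% and 49.5% on the week 6 arrays. Lymphocyte markers were detected almost throughout, with 20 of 21 T cell genes and 15 of 16 B cell genes above background on all 6 arrays. The same held for 15 of 20 macrophage genes, 12 of 19 endothelial genes, 7 of 18 genes of synovial fibroblasts and lining, and 13 of 26 genes of fat cells. Pdgfrb, Fap and Cdh11, which mark synovial fibroblasts, and Cdh5 of endothelium did not pass the detection filter, and Prg4 of the lining has no probe named here. No cartilage gene of 12 was detected on all arrays. Levels also differed between lists. On the arrays of weeks 9 and 6 the median log2 signal ran from 10.76 to 10.94 for B cell genes and 9.49 to 9.84 for T cell genes. It ran from 7.05 to 8.75 for fibroblast and lining genes, 5.70 to 7.76 for endothelial genes and 5.68 to 6.49 for fibrillar collagens. The dimmest detected probe lay at 5.01 to 5.13. Which cells or tissue these levels reflect was not tested.

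Across 10167 genes and unnamed probes, with the brightest probe standing for each gene, 36 passed an adjusted p of 0.05 (limma with Benjamini-Hochberg adjustment), which is 0.354% of those tested. Of these, 34 were lower at week 9 (0.334%) and 2 were higher (0.0197%). Over all features the median change was 0.04 with an SD of 0.40, and 44.9% of changes were negative. At an unadjusted p under 0.05 there were 873 lower (8.59%) and 755 higher features (7.43%), 16% together. Large changes were mostly losses, since 217 features were lower by more than 1 on the log2 scale and 31 were higher by as much. The 36 features were spread unevenly over the range of signal, with 5, 23, 6 and 2 in 4 bins of nearly equal size from dim to bright. The count depends on the arrays used. With the 4 arrays of both weeks alone it was 171, and without any 1 of those 4 arrays it was 0 or 1, with 790 to 879 at an unadjusted p under 0.05. The week 15 pair, which enters the error estimate, differed more than the others, with an SD of the log2 difference of 0.510.

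**Figure D1:**
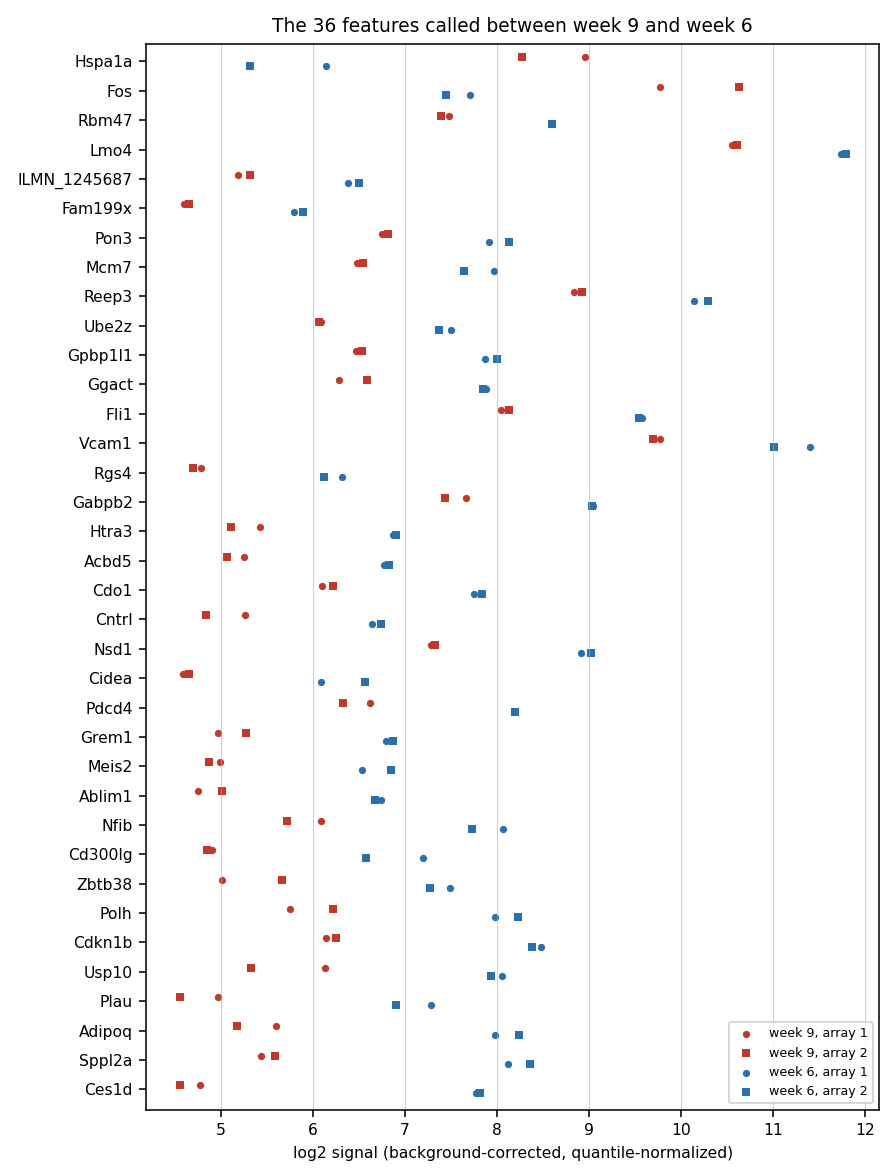
Log2 signal of each called feature on each array of week 9 and week 6. Of the 36 features, 34 lie lower on both week 9 arrays than on both week 6 arrays, and Fos and Hspa1a lie higher.

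Both genes that rose encode proteins that cells make quickly when disturbed. Hspa1a encodes an inducible chaperone of the Hsp70 family, which holds unfolded proteins. It had log2 signals of 8.95 and 8.27 at week 9, against 6.14 and 5.32 at week 6. Fos, a classic immediate early gene, encodes a protein that pairs with Jun to form the factor AP-1. It had log2 signals of 9.77 and 10.63 at week 9, against 7.70 and 7.45 at week 6. The groups do not overlap for either gene, and the changes were 2.88 (SE 0.34, limma adjusted p = 0.0311) and 2.63 (SE 0.29, limma adjusted p = 0.0302). At week 15 the signals were 12.37 and 11.96 for Hspa1a and 13.55 and 13.26 for Fos, above every earlier array. On the authors' processed values the Hspa1a change had an adjusted p of 0.0523.

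The promoters of these 2 genes are shown because they stand apart from the other called genes in direction. They are RefSeq sequences of the mouse assembly GRCm38.p6 from 250 bases before the start site to 50 after it, and capitals mark the motif a script found. The Fos window lies at chr12:85473640-85473939 on the plus strand, with TATAAA first found at position -33 from the start site. The Hspa1a window lies at chr17:34972107-34972406 on the minus strand, with GAANNTTC, a pair of inverted heat shock units, at position -104.
Fos: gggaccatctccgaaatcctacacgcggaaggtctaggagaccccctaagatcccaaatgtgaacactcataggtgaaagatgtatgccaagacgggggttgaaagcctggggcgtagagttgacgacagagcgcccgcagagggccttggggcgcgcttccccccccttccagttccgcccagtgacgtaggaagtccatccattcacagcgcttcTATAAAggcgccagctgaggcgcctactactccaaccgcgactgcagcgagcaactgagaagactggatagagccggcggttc
Hspa1a: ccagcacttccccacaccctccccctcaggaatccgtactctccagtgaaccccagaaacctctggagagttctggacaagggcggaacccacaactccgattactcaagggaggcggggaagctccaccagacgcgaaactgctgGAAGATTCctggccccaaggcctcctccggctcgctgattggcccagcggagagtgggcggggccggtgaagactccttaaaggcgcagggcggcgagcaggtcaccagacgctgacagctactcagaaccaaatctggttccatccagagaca
Both strands were searched. TATAAA occurs in 14.16% of all 27025 windows of this length and GAANNTTC in 7.952%, so neither motif is rare. A longer heat shock element, GAANNTTC followed at once by NNGAA, occurs in 0.5291% of windows and has no match in the Hspa1a window. The shorter form was searched after seeing that. The motifs CCATA followed at once by TTAGG, of the factor SRF, TGACGTCA, of CREB, and TGAGTCA, of AP-1, have no match in either window and occur in 0.07771%, 1.876% and 5.166% of windows. Only these exact letters were searched, and sites more than 250 bases before the start site lie outside the windows. A missing match therefore does not show that a gene lacks such a site.

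On the brightest probe of each gene, no other member of these families passed. Of 17 tested immediate early genes, Fos alone passed. At an unadjusted p under 0.05, 7 were higher and 1 was lower, against 7.43% and 8.59% of all features. The list's median change was 0.41. That median was 0.09 without the second week 9 array, 0.24 without the second week 6 array, and 0.07 over all 23 members on the array with no filter on dim probes. Fosb, a close relative of Fos, had log2 signals of 6.34 and 6.68 at week 9, against 5.39 and 4.91 at week 6, with 1 of 2 week 6 arrays above background (adjusted p = 0.0703). Zfp36, an RNA-binding protein that speeds decay of cytokine messages, had log2 signals of 12.11 and 12.40 at week 9, against 11.58 and 11.42 at week 6 (adjusted p = 0.181). Both week 9 arrays lay above both week 6 arrays for these genes, as for 32.6% of all features, but the changes did not pass. In the opposite direction Ier3, an early response gene tied to cell survival, had a change of -1.07 (adjusted p = 0.19). Of 15 tested heat shock genes, Hspa1a alone passed on the brightest probe and the median change was 0.06, next to that of all features. Hspd1, a mitochondrial chaperone named here after its values were seen, passed in the opposite direction on its second probe, with 8.29 and 8.24 at week 9, against 9.52 and 9.55 at week 6 (change -1.28, limma adjusted p = 0.0391 over all probes). Its brightest probe had 10.51 and 10.44 at week 9, against 10.45 and 10.74 at week 6, with overlapping weeks.

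The lowest p-values belonged to 2 genes of different roles. Cdkn1b encodes p27, an inhibitor of cyclin-dependent kinases that holds cells out of division. It had log2 signals of 6.14 and 6.25 at week 9, against 8.48 and 8.38 at week 6, a change of -2.23 (SE 0.16, limma adjusted p = 0.0185). Sppl2a encodes an intramembrane protease that clears the invariant chain remnant CD74 in antigen-presenting cells. It had log2 signals of 5.43 and 5.59 at week 9, against 8.12 and 8.36 at week 6, a change of -2.73 (SE 0.21, limma adjusted p = 0.0185). Replicates lay within about 0.3 of each other for these genes, while the weeks were more than 2 apart. Sizes depend on the background step. On the authors' processed values the same probes changed by -1.09 and -1.15.

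Several other genes that fell act on growth, DNA copying, protein stability or chromatin. Polh, the polymerase that copies past ultraviolet damage, had log2 signals of 5.74 and 6.21 at week 9, against 7.98 and 8.23 at week 6 (change -2.12, limma adjusted p = 0.0262). Pdcd4, an inhibitor of translation initiation through eIF4A, had 6.62 and 6.33 at week 9, against 8.18 and 8.20 at week 6 (change -1.72, limma adjusted p = 0.0296). Mcm7, a subunit of the helicase that opens DNA for replication, had 6.47 and 6.54 at week 9, against 7.96 and 7.64 at week 6 (change -1.29, limma adjusted p = 0.0483). For all 3, both week 9 arrays lie more than 1 below the lower week 6 array. Usp10, a deubiquitinase, fell by 2.26 (limma adjusted p = 0.0311) and Ube2z, a ubiquitin-conjugating enzyme, by 1.36 (limma adjusted p = 0.0313). Nsd1, which methylates histone H3, had 7.28 and 7.32 at week 9, against 8.91 and 9.03 at week 6 (change -1.66, limma adjusted p = 0.0394). Cntrl, a protein of the centriole, changed by -1.65, with 1 of 2 week 9 arrays above background.

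The genes that fell also include several transcription regulators, for which no list was set. Fli1, an ETS factor of endothelium and blood cells, had log2 signals of 8.05 and 8.13 at week 9, against 9.57 and 9.54 at week 6 (change -1.47, limma adjusted p = 0.0394). Lmo4, a LIM-only adaptor of transcription complexes, had 10.56 and 10.61 at week 9, against 11.74 and 11.79 at week 6 (change -1.18, limma adjusted p = 0.0394). Replicates of Fli1 and Lmo4 lay within 0.1 of each other. Nfib, a nuclear factor I protein, had 6.08 and 5.72 at week 9, against 8.06 and 7.73 at week 6 (limma adjusted p = 0.0262). Zbtb38, which binds methylated DNA, changed by -2.05 (limma adjusted p = 0.0311), with 1 week 9 array above background. Gabpb2, a subunit of the GA-binding protein, changed by -1.49 (limma adjusted p = 0.0298), and Gpbp1l1 by -1.43 (limma adjusted p = 0.0296). Meis2, a homeobox factor, was not above background on either week 9 array and was at least 2.99-fold lower (limma adjusted p = 0.0262). Such a bound takes the week 6 mean over a floor at week 9. On each array the floor is the dimmest detected probe, or the gene itself where that is brighter.

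Genes of fat tissue and of metabolism also fell. Ces1d, a carboxylesterase of fat and liver, had log2 signals of 4.77 and 4.55 at week 9, against 7.78 and 7.82 at week 6, not above background at week 9, and was at least 6.44-fold lower (limma adjusted p = 0.0394). Adipoq, the fat cell hormone adiponectin, had 5.60 and 5.17 at week 9, against 7.97 and 8.24 at week 6 (change -2.72, SE 0.27, limma adjusted p = 0.0262). Cidea, a lipid droplet protein, was at least 2.32-fold lower (limma adjusted p = 0.0349). For Ces1d and Adipoq the weeks lay more than 2 apart, with replicates of each week within 0.5. Cdo1, which oxidizes cysteine, changed by -1.64 (limma adjusted p = 0.0311). Pon3, a lactonase of the paraoxonase family, changed by -1.24 (limma adjusted p = 0.0483). Acbd5, a membrane protein of peroxisomes, changed by -1.64 (limma adjusted p = 0.0262), with 1 week 9 array above background. Ggact, which breaks down crosslinked glutamyl-amines, changed by -1.44 (limma adjusted p = 0.0313).

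The remaining genes that fell have mixed roles. Vcam1, an adhesion molecule of activated vessels and lining fibroblasts, had log2 signals of 9.78 and 9.70 at week 9, against 11.41 and 11.01 at week 6 (change -1.47, limma adjusted p = 0.0483). Plau, the urokinase plasminogen activator, had 4.97 and 4.56 at week 9, against 7.28 and 6.90 at week 6 and was at least 3.95-fold lower (limma adjusted p = 0.0262). Cd300lg, a receptor of capillary endothelium that binds lymphocytes, was at least 3.42-fold lower (limma adjusted p = 0.0483). Neither Plau nor Cd300lg was above background on a week 9 array. Grem1, a secreted antagonist of bone morphogenetic proteins, had 4.96 and 5.27 at week 9, against 6.80 and 6.87 at week 6 (change -1.72, limma adjusted p = 0.0262), with 1 week 9 array above background. Htra3, a secreted serine protease, changed by -1.61 (limma adjusted p = 0.0311), again with 1 week 9 array above background. Rgs4, a brake on G protein signalling, was at least 2.15-fold lower (limma adjusted p = 0.0296). Ablim1, which binds actin, was at least 3.02-fold lower (limma adjusted p = 0.0262). Reep3 of the endoplasmic reticulum changed by -1.34, Rbm47, an RNA-binding protein, by -1.15, and Fam199x was at least 1.66-fold lower. The last called feature is a probe with no gene name. On the authors' processed values 22 of the 36 passed. Ablim1, Acbd5, Grem1, Meis2, Rgs4, Htra3, Ube2z, Cidea, Fam199x, Cntrl, Cd300lg, Mcm7, Hspa1a and the unnamed probe did not, with the same sign for the named genes.

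At week 15 the 34 features that fell did not share a level. They were set beside week 15 after those values were seen, and the comparisons share the week 9 arrays, so the numbers are a description. Of the 34, 22 were called higher at week 15 than at week 9, against 0.974% of all features. Their median week 9 change was -1.64, and their median at week 15 was 0.02 above week 6, within -0.78 to 0.57. Sppl2a, Cdkn1b, Pdcd4, Usp10, Nsd1, Fli1, Lmo4 and Polh are among them. The other 12 were Adipoq, Cidea, Ces1d, Cdo1, Pon3, Grem1, Htra3, Meis2, Rgs4, Vcam1, Cd300lg and Mcm7. These had a median week 9 change of -1.67 and a median of -1.33 relative to week 6 at week 15, within -2.42 to -0.29. The split itself used the week 15 values, so a gap between the 2 sets at week 15 follows from the sorting. Some genes lay near the cutoff. Mcm7 missed it (limma adjusted p = 0.0561) at -0.29 relative to week 6, while Nfib passed (limma adjusted p = 0.0485) at -0.78. None of the 34 was called between week 15 and week 6, where 0.0492% of features were. The count of 22 was 14 without the second week 15 array, and 0 or 1 without any array of week 9 or week 6.

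**Figure D2:**
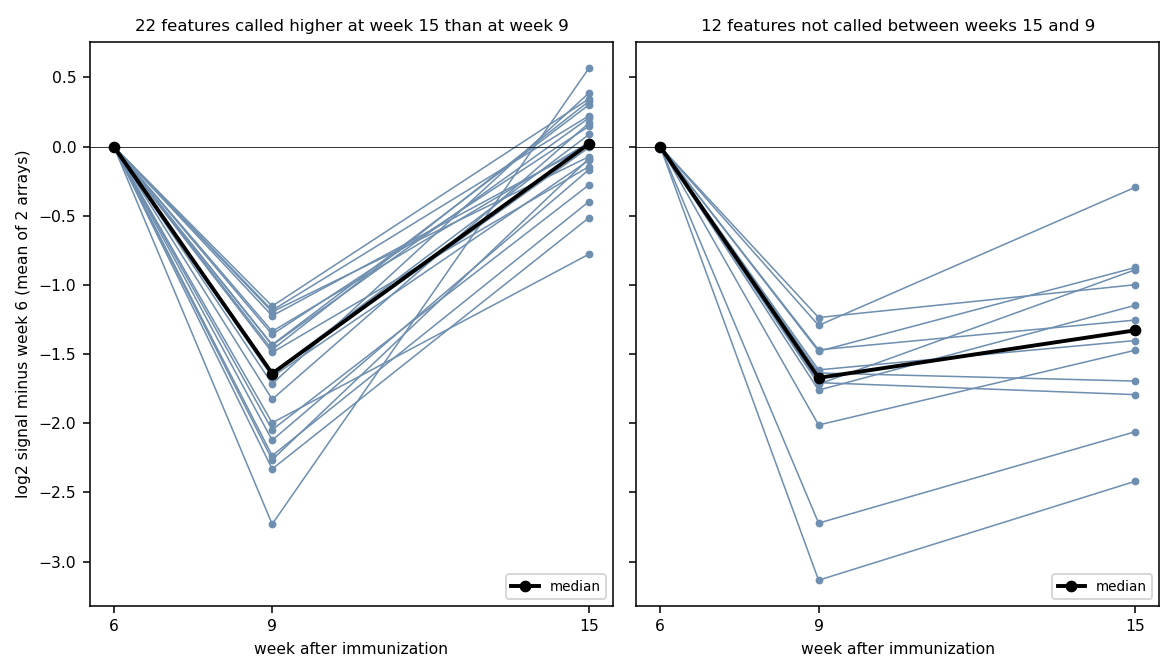
Mean log2 signal relative to week 6 of the 34 features that fell, at 6, 9 and 15 weeks after immunization, each line 1 feature and the black line the median. The panels split the features by their week 15 values. The 22 in the left panel, called higher at week 15 than at week 9, have a median of 0.02 at week 15. The 12 in the right panel, not so called, have a median of -1.33.

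Below the threshold, several lists of genes had medians away from 0. Lists of cell type and pathway genes, 54 in all, were described by their medians beside that of all features, 0.04. Of these, 11 had a median under -0.5, 2 had a median over 0.3, and 36 lay within 0.3 of 0. Some genes belong to several lists, so the lists are not independent. The detection filter can pass a gene on its bright week alone, so for the lists described at length the median over all members with a probe, with no filter on dim probes, is given too. With no such filter 5 lists had a median under -0.5, and on the authors' processed values 3 did. With only probes detected on all 6 arrays 12 lists did.

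**Figure D3:**
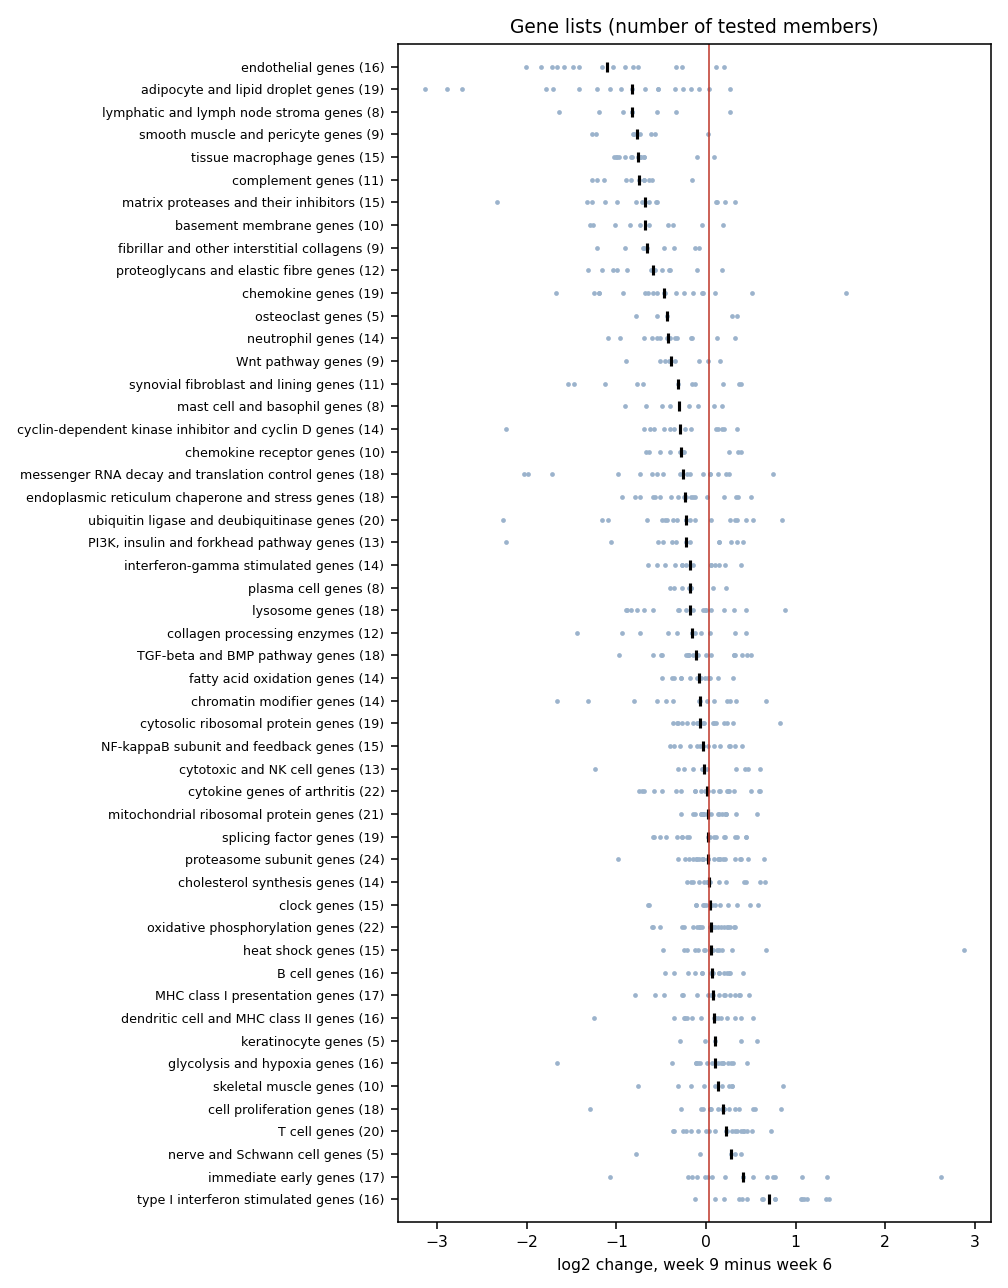
Change of each tested gene, week 9 minus week 6 on the log2 scale, in lists with at least 5 tested members, with a tick at each list's median and a line at the median of all features, 0.04. The endothelial list lies farthest to the left, with a median of -1.10, and the type I interferon list farthest to the right, with a median of 0.70.

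Endothelial genes had the lowest median, -1.10 over 16 tested members and -0.90 over all 19 on the array. Of the 16, 11 were lower at an unadjusted p under 0.05, against 8.59% of all features, none was higher at that p, and Cd300lg passed the adjusted test. Both week 9 arrays lay below both week 6 arrays for 13 members, against 25.6% of all features. Ramp2, a co-receptor for adrenomedullin, had log2 signals of 6.26 and 6.72 at week 9, against 8.45 and 7.85 at week 6 (adjusted p = 0.15). Emcn, a sialomucin of venous and capillary vessels, had a change of -1.49 (adjusted p = 0.19), and Plvap, of fenestrated vessels, -1.41 (adjusted p = 0.197). Outside the list, Cav1, the coat protein of caveolae in vessels and fat, had log2 signals of 6.11 and 5.99 at week 9, against 8.15 and 7.99 at week 6 (adjusted p = 0.0557). Pecam1, an adhesion molecule that leukocytes also carry, had a change of 0.11, and Kdr, a receptor of vascular endothelial growth factor, 0.20. The first week 6 array decided part of the size. After centring the signals per gene, the list's median lay at -0.58 and -0.61 on the week 9 arrays. On the week 6 arrays it lay at 0.96 and 0.13. Leaving out the first week 6 array gave a median of -0.60, and leaving out the second -1.58.

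Genes of cells around vessels and of the lymphatic bed also had negative medians. Smooth muscle and pericyte genes had a median of -0.77 over 9 tested members and -0.59 over all on the array. Of the 9, 5 were lower at an unadjusted p under 0.05, against 8.59% of all features. The list's centred median lay at -0.34 and -0.35 on the week 9 arrays, against 0.56 and 0.18 on the week 6 arrays. Mcam had a change of -1.27, with 1 week 9 array above background, but -0.09 on its second probe. Rgs5, a pericyte marker, had a change of -1.23 (adjusted p = 0.174). Genes of lymphatics and lymph node stroma had a median of -0.82 over 8 tested members and -0.36 over all on the array. Their centred median lay at -0.51 and -0.30 on the week 9 arrays, against 0.58 and 0.16 on the week 6 arrays. In both lists the first week 6 array thus lay farther from week 9 than the second. Glycam1, a mucin of high endothelial venules, had a change of -1.64 (adjusted p = 0.215), and Ccl21a, a chemokine that draws T cells, -0.93 (adjusted p = 0.365). Erythroid genes, a trace of blood, had 4 tested members with a median of -0.97, and -0.07 over all on the array. Hbb-b2, a globin, had a change of -1.05 (adjusted p = 0.0703). None of these members passed the adjusted test.

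Fat cell and lipid droplet genes included 3 of the 36 calls, Adipoq, Cidea and Ces1d. The list was chosen with earlier results of these data known, so finding these calls in it is a description only. Cidea and Ces1d were not above background on either week 9 array. The counts that follow cover only members that passed the detection filter, and 13 of these 19 were detected on all 6 arrays. Of 19 tested members, 17 had a negative change, against 44.9% of all features. At an unadjusted p under 0.05, 11 were lower, against 8.59%. Their median was -0.83. It was -0.44 over all 26 on the array and -0.68 over the 13 detected on all 6 arrays. Plin4, a lipid droplet coat protein, had log2 signals of 5.38 and 5.30 at week 9, against 8.09 and 8.37 at week 6. The weeks lie more than 2.5 apart, but the change of -2.89 just missed the threshold (adjusted p = 0.063).

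For tissue macrophage genes the median was -0.75 over 15 tested members and -0.73 over all 20 on the array. Of the 15, 14 had a negative change, against 44.9% of all features. At an unadjusted p under 0.05, 12 were lower, against 8.59%. None passed the adjusted test. Mrc1, the mannose receptor, had log2 signals of 7.14 and 7.43 at week 9, against 8.38 and 8.20 at week 6 (adjusted p = 0.0968). Timd4, a receptor for dying cells on resident macrophages, had 7.13 and 7.08 at week 9, against 7.98 and 8.17 at week 6 (adjusted p = 0.0871). Both week 9 values lie below both week 6 values in each case, as for 25.6% of all features. Marco, a scavenger receptor, had a change of -1.03, and Adgre1, which encodes F4/80, -0.84 (adjusted p = 0.132 and 0.156). Folr2, another resident macrophage gene, had 0.09. Cd68 and Csf1r have no probe named here.

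Complement genes, many of them made by macrophages and fibroblasts, had a median of -0.75 over 11 tested members and -0.69 over all 15 on the array. All 11 changes were negative, against 44.9% of all features, and 9 were lower at an unadjusted p under 0.05, against 8.59%. C1qa, C1qb and C1qc also belong to the tissue macrophage list, so these counts are not separate from those given for macrophage genes. Cd59a, which blocks the membrane attack complex, had a change of -1.22 (adjusted p = 0.156), and C1qc, a chain of the first component, -0.69 (adjusted p = 0.237). None passed.

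Matrix genes were split over 5 lists. The medians were -0.68 for basement membrane genes, -0.68 for proteases and their inhibitors, -0.66 for fibrillar collagens and -0.59 for proteoglycans and elastic fibres, but -0.15 for collagen processing enzymes. With no filter on dim probes they were -0.40, -0.55, -0.47, -0.41 and -0.10 in the same order. Of 12 tested processing enzymes, 2 were lower and 1 higher at an unadjusted p under 0.05, against 8.59% and 7.43% of all features. Joined after their values were seen, the 5 lists held 58 tested genes, of which 25 (43.1%) were lower at that p and 1 was called. Dcn, the proteoglycan decorin, had log2 signals of 11.51 and 11.77 at week 9, against 12.82 and 12.44 at week 6 (adjusted p = 0.124). Col6a1, of microfibrillar collagen, had 8.20 and 8.67 at week 9, against 9.88 and 9.42 at week 6 (adjusted p = 0.102). Both week 9 values lay below both week 6 values for these genes, as for 25.6% of all features, and neither passed. Col1a1, of type I collagen, had 5.84 and 6.01 at week 9, against 6.95 and 5.85 at week 6, where the weeks do overlap. Loxl1, which crosslinks elastic fibres, had a change of -1.44 (adjusted p = 0.19), Col4a1 of basement membranes -1.29 (adjusted p = 0.227), and Bgn, biglycan, -1.04 (adjusted p = 0.248). The fibrillar list's median was -0.17 on the authors' processed values and -0.40 without the first week 9 array, and the basement membrane list's was -0.38 without the first week 6 array.

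Proteases and the lining carried 2 of the calls. Of 15 tested matrix proteases and inhibitors, Plau passed and 7 were lower at an unadjusted p under 0.05, against 8.59% of all features. Mmp3, stromelysin, had log2 signals of 7.52 and 7.56 at week 9, against 9.07 and 8.00 at week 6 (adjusted p = 0.335). Timp3, a matrix-bound inhibitor, had a change of -1.32 (adjusted p = 0.213) and Mmp14, a membrane-type collagenase, -0.72 (adjusted p = 0.367). Of 11 tested genes of synovial fibroblasts and lining, Vcam1 passed, 5 were lower at an unadjusted p under 0.05, and the median was -0.31, but -0.14 over all 18 on the array. Pdgfra had a change of -1.54 (adjusted p = 0.152) and Thy1, which T cells also express, 0.36.

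Lymphocyte genes lay close to the median of all features. Over 4 lymphocyte lists, joined after their values were seen, 57 tested genes had a median of 0.03 and none passed. At an unadjusted p under 0.05, 2 were lower (3.51%) and 6 higher (10.5%), against 8.59% and 7.43% of all features. T cell genes had a median of 0.23, with 4 of 20 higher at an unadjusted p under 0.05. Both week 9 arrays lay above both week 6 arrays for 10 of the 20, against 32.6% of all features. Cd3e, of the T cell receptor complex, had log2 signals of 12.52 and 12.02 at week 9, against 11.60 and 11.49 at week 6 (adjusted p = 0.224). Its week 9 values lie above both week 6 values. After centring the signals per gene, the T cell list's median lay at 0.24 and 0.03 on the week 9 arrays. On the week 6 arrays it lay at -0.14 and -0.10. Without the first week 9 array the list's median change was 0.13. B cell genes had a median of 0.07, and genes of dendritic cells and MHC class II 0.09. Prf1, perforin of killer cells, had a change of -1.24 (adjusted p = 0.13), and Siglech, of plasmacytoid dendritic cells, -1.25 (adjusted p = 0.0643). Their second probes, detected on all 4 arrays, had changes of -0.06 and 0.10. Ribosomal, respiratory and proteasome genes together, 86 tested, had a median of 0.02 with 4 lower and 4 higher at an unadjusted p under 0.05. The part of cell composition in any of the lower lists was not tested.

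The cytokines and effectors for which arthritis is known did not pass. Tnf had log2 signals of 7.68 and 7.24 at week 9, against 7.47 and 7.16 at week 6, with overlapping weeks. Il1b had 8.62 and 8.62 at week 9, against 9.29 and 9.11 at week 6 (adjusted p = 0.222), lower on both week 9 arrays. Il17a and the brightest probe of Mmp13 were above background on 1 array of each week, the second probe of Mmp13 on 1 week 9 array and both week 6 arrays, Il10 on none of the 4, and Il6, Ccl2 and Ptgs2 did not pass the detection filter. S100a8, a calprotectin subunit of neutrophils, had 12.15 and 12.04 at week 9, against 12.83 and 12.24 at week 6 (adjusted p = 0.38). Over 22 tested cytokine genes the median was 0.01, and over 15 genes of NF-kappaB subunits and feedback it was -0.03 with none at an unadjusted p under 0.05. Chemokine genes had a median of -0.47 over 19 tested and -0.42 over all 25 on the array. Of the 19, 16 had a negative change, against 44.9% of all features, and 3 a positive one. At an unadjusted p under 0.05, 5 were lower and 1 higher, against 8.59% and 7.43% of all features. Cxcl13, which draws B cells, had 9.54 and 9.44 at week 9, against 10.80 and 10.55 at week 6 (adjusted p = 0.052). Ccl3, a macrophage chemokine, had 7.70 and 8.19 at week 9, against 6.52 and 6.25 at week 6 (adjusted p = 0.0901). Neither overlaps between weeks, and they lie on opposite sides. Of all features 25.6% lie below and 32.6% above at week 9 in this way. Cxcl1, which draws neutrophils, had a change of -1.67 (adjusted p = 0.19). The acute phase gene Saa3 had 6.95 and 7.17 at week 9, against 9.07 and 7.56 at week 6, where the gap between the week 6 arrays exceeds that from the lower of them to week 9.

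Some regulators just missed the adjusted threshold, and others lay farther from it. Paip1, which joins poly(A)-binding protein to translation, had log2 signals of 4.96 and 4.76 at week 9, against 6.56 and 7.14 at week 6, a bound of at least 3.34-fold (adjusted p = 0.0508). Tut4, which adds uridines to RNA tails, gave at least 2.9-fold (adjusted p = 0.0643). Over 18 tested genes of messenger decay and translation control, Pdcd4 passed. At an unadjusted p under 0.05, 6 were lower and 1 higher, against 8.59% and 7.43% of all features. The median was -0.25. It was -0.20 over all 20 on the array and -0.13 without the second week 6 array. Usp15 and Usp9x, deubiquitinases, had changes of -1.16 and -1.09 (adjusted p = 0.0668 and 0.176), while Usp22, of the SAGA complex, had 0.84 (adjusted p = 0.101). Setd2, which methylates histone H3, had -1.32 (adjusted p = 0.135). Chd4, a nucleosome remodeller, had 0.67 on its brightest probe, which did not pass, but -1.45 and -0.27 on its others. Lysosomal Ctsa and Ctsb had -0.88 and -0.89 (adjusted p = 0.0877 for both), but the other 3 probes of Ctsa had changes from -0.09 to 0.38. Proliferation genes, Mcm7 included, had a median of 0.19 over 18 tested, 0.09 over all 22 on the array and 0.05 without the second week 9 array.

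Type I interferon genes had the highest median, 0.70 over 16 tested members, and 15 of 16 changes were positive. None had an unadjusted p under 0.05. The list was looked at by array after its values were seen. The first week 9 array held the highest of the 4 signals for 16 of 16 members, against 26.4% of all features. The first week 6 array held the lowest for 15 of 16, 93.8%, against 25.5% of all features. Isg15, a ubiquitin-like protein, had log2 signals of 10.13 and 8.85 at week 9, against 7.84 and 8.96 at week 6. Ifit3, an antiviral RNA-binding protein, had 12.95 and 11.63 at week 9, against 10.15 and 11.75 at week 6. Mx2, an antiviral GTPase, had 8.63 and 7.41 at week 9, against 6.46 and 7.33 at week 6. In each of these the arrays of 1 week differ by about as much as the week means. The median SD within a week was 0.78 for the list and 0.14 for all features. The median difference between the second arrays of both weeks was -0.21, against 0.04 for all features. Without the first week 9 array the list's median was 0.10 and without the second 1.43, and without the first week 6 array it was 0.28 and without the second 1.11.

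**Figure D4:**
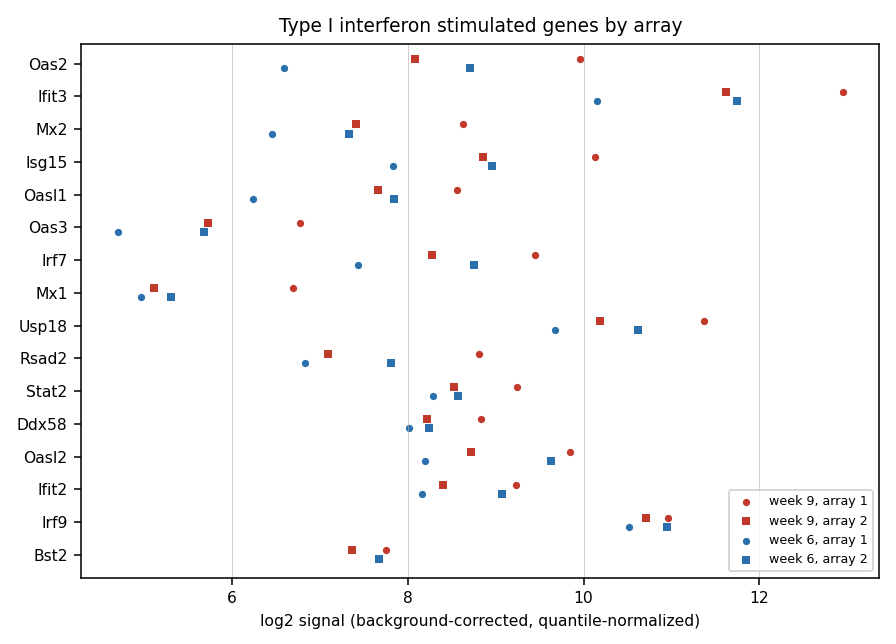
Log2 signal of each of the 16 tested type I interferon genes on the 2 week 9 and 2 week 6 arrays. The first week 9 array is highest for 16 genes and the first week 6 array lowest for 15.

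Where a gene has several probes, each is its own measurement of the change. Of the named genes, 2459 had 2 or more tested probes, 5925 probes in all, and 6901 had 1. The sign of the change was the same on every probe in 1342 genes, 54.6%, and in 63.7% of genes with 2 probes. Changes of the brightest and the second probe correlated at r = 0.379 and rho = 0.365 across the 2459 genes, which are not independent replicates. Agreement in sign was more frequent at larger changes. It held for 59.6% of genes whose brightest probe changed by under 0.25, and for 75.5% of the 53 genes where it changed by 1 or more. With every probe detected on all 6 arrays, 57.9% of 1629 genes agreed and r was 0.444. In 161 genes the probes lay more than 1 apart.

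**Figure D5:**
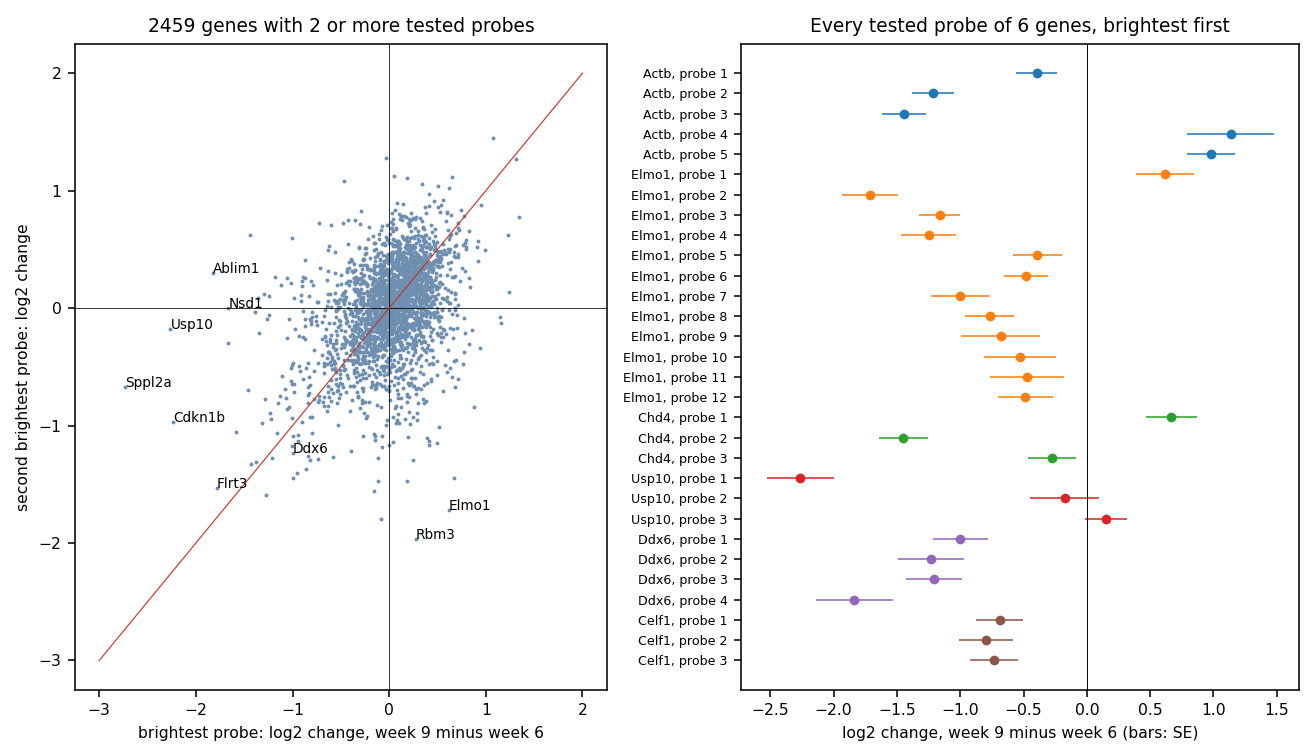
Change of the second brightest probe against that of the brightest probe, week 9 minus week 6 on the log2 scale, 1 point per gene with 2 or more tested probes. The points form a loose cloud, with r = 0.379 over 2459 genes and the same sign in 63.8%.

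Only 7 of the 35 named genes called had several tested probes, and their probes shared a sign in 3. These were Cdkn1b, Sppl2a and Pon3, whose second probe was not above background at week 9 and was at least 1.33-fold, 1.36-fold and 1.32-fold lower. In Ablim1 the second probe was above background on 1 week 9 array and no week 6 array. In Ube2z, where 1 array of each week was above background, the second probe had a change of 0.08. The other 2 probes of Usp10 had changes of -0.18 and 0.15, against -2.26 on its brightest. The second probe of Nsd1 was above background on 1 array of the 4, at week 6. The other 28 named calls rest on a single tested probe.

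Tested 1 by 1, 71 of 13633 probes passed (0.521%), 68 lower (0.499%) and 3 higher (0.022%), the third being Lrrc1 with 1.15 (limma adjusted p = 0.046). Its other probes had changes of -0.07 and 0.76, the first above background on 1 week 9 array and the second on no week 6 array. Of them, 21 were not the brightest probe of their gene, and for 19 genes only such a dimmer probe passed. The other probes of genes with a called probe shared its sign in 38 of 58 cases, 20 of them at an unadjusted p under 0.05, and 6 had the opposite sign at that p. Actb, cytoplasmic actin and a frequent reference gene, shows the range. Its brightest probe had log2 signals of 14.91 and 14.96 at week 9, against 15.31 and 15.36 at week 6, a change of -0.40. The next had 12.69 and 12.80 at week 9, against 13.93 and 13.99 at week 6 (change -1.21, limma adjusted p = 0.0386), and the third 10.58 and 10.58 at week 9, against 11.90 and 12.15 at week 6 (change -1.45, limma adjusted p = 0.0304). The other 2 probes had changes of 1.14 and 0.98. The authors' processed values gave the same 5 signs. Elmo1, which activates Rac in cell movement, has 12 tested probes. Its brightest had 11.50 and 11.63 at week 9, against 10.97 and 10.92 at week 6, a change of 0.62. The other 11 had changes from -0.39 to -1.72, 2 of which passed (limma adjusted p = 0.035 and 0.0436). Chd4 had 0.67, -1.45 and -0.27, the middle one passing (limma adjusted p = 0.0383). Cyb5r3, a cytochrome b5 reductase, had -0.11, -1.47 and 0.56, again with the middle one passing (limma adjusted p = 0.0304). Probe positions were not used here, so which transcripts these probes read was not tested.

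In 72 of 2459 genes with several tested probes, 2.93%, every probe had an unadjusted p under 0.05 in 1 direction, 51 lower and 21 higher. Counted per probe rather than per gene, 9.13% were lower and 7.34% higher at that p, 16.5% together. The genes below come from the 72, so their agreement across probes was fixed by the choice. Ddx6, a helicase of messenger decay bodies, had 10.62 and 10.79 at week 9, against 11.68 and 11.73 at week 6 on its brightest probe, changes of -1.23 and -1.21 on others, and its dimmest probe was at least 2.67-fold lower. Celf1, which binds GU-rich messages, had -0.69, -0.80 and -0.74. Col6a1 had -1.21 and -1.28, and Dcn -0.99 and -0.71. None of these matrix and RNA genes passed the adjusted test. Flrt3, an adhesion protein, had -1.78 and -1.53, and P2ry10, a lymphocyte receptor, -1.13 and -0.75. On the higher side Acad10 had 1.22 and 0.62, Ncoa6, a nuclear receptor coactivator, 0.95 and 0.88, and Ssh3, a cofilin phosphatase, 0.72 and 0.66, the last with 1 of 2 week 6 arrays above background.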

How the data were processed

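Illumina bead arrays of 3 groups, 2 per week, were deposited as 1 linear intensity per probe and array, per the file headers. The authors' processed values are log2 values, and their scaling method was not given in the sources used here. Those of each array correlated best with its own array (r at least 0.996, against at most 0.992 with any other). No genome position of a probe was used, and 2 columns that match no sample were not used.

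Of 26821 rows, 1124 carry no probe ID and were taken as controls. Of these, 13 exceeded the control median by more than 5 median absolute deviations on at least 1 array and were dropped, and the other 1111 set the background. Intensities were corrected by the normal-exponential model, quantile-normalized and log2-transformed with an offset of 16 (neqc, limma 3.58.1, R 4.3.3). Detection p is the share of those rows at least as bright as a probe. Probes with a detection p under 0.05 on at least 2 of 6 arrays were tested (13633 of 25697). Of all probes 23978 have 1 gene symbol, 1719 none and 0 several, and 23962 matched RefSeq genes of GRCm38.p6. The brightest probe over the 6 arrays stood for its gene, and unnamed probes stayed as features (9360 genes, 807 unnamed).

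All 6 arrays entered 1 linear model of group means (lmFit and eBayes), with 3 residual and 4.02 prior degrees of freedom. Tests were two-sided, adjusted by Benjamini-Hochberg over all features at 0.05. The number of arrays limits the precision. On simulated data with 10167 genes, 65.2% of genes changed by 1 and 99.5% of those changed by 2 (log2) were recovered, and 0.0963% of unchanged genes were called. The simulated noise was normal and independent between genes and arrays, with the moderated variance of each gene. These shares therefore need not hold for the measured arrays. Genes were named if they passed, by the smallest p in each list, by rank just outside the threshold, by agreement or gap between probes, or by name as arthritis or reference genes. The genes, lists and tests were chosen with earlier results of these data known. Alternatives were other background corrections, scaling, filters, probe means, the authors' processed values, the 4 arrays alone, a replicate block and leaving out each array.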

Additional observations from a re-analysis of the deposited data

How the results depend on the processing

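Of the 36 called features, 0 of the 35 named genes reversed under any alternative run. The count was 69 with no background correction (63 lower, 6 higher), 90 with the normal-exponential model without control rows and an offset of 50 (81 lower, 9 higher), 83 with scaling to the 75th percentile (78 lower, 5 higher) and 171 with only the 4 arrays of both weeks (146 lower, 25 higher). On the authors' processed values it was 50, of which 22 are shared with the 36. It was 34 with no filter on dim probes, 29 with probes detected on all 6 arrays and 27 with the mean over a gene's probes. Leaving out 1 array gave 0 to 171 genes and 0 to 274 probes. Without the first or second week 6 array or the second week 9 array, limma called 0 genes, with 862, 879 and 843 at an unadjusted p under 0.05, and without the first week 9 array 1. Without either week 15 array it called 171, since the lone array then adds nothing to the error estimate. An array left alone in its week is assumed to vary like the others.

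With the replicate number as a block, 8 genes (7 lower, 1 higher) and 7 probes were called. The numbers are not shown to pair the arrays, since deviations of same-numbered arrays correlated at -0.04 between weeks 6 and 9, and at 0.15 and -0.08 with week 15.

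The share of genes with 1 sign on all probes, 54.58%, was 58.06% with probes detected on all 6 arrays and 52.62% to 55.8% without 1 array. The 11 lists with a median under -0.5 numbered 5 with no background correction, 7 with the offset of 50, 3 on the authors' processed values, 5 with no filter on dim probes, and 9 to 13 without 1 array. For 16 lists with a median beyond 0.4, all 240 values under alternatives kept their sign. The alternatives reuse the same arrays and these lists were taken for their large medians, so kept signs were likely from the start. A kept sign can also hide a large shift, as the type I interferon median fell from 0.70 to 0.10 without the first week 9 array. The 22 features called higher at week 15 than at week 9 numbered 15 with the block and 0 to 24 without 1 array. Signal over background limits the 8 called genes not detected at week 9 to bounds.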

Other observations

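Genes just outside the adjusted threshold extend both sides of the comparison (limma with Benjamini-Hochberg adjustment over all features). Cldn11, a tight junction protein, had log2 signals of 6.17 and 6.47 at week 9, against 7.74 and 7.58 at week 6 (adjusted p = 0.0506). Sp4, a zinc finger factor of the Sp family, had 6.01 and 5.84 at week 9, against 7.35 and 7.57 at week 6 (adjusted p = 0.0506). On the higher side the brightest probe of Lrrc1 had 7.18 and 7.03 at week 9, against 6.04 and 5.87 at week 6 (adjusted p = 0.0506). The weeks do not overlap in these genes, as in 25.6% of all features with week 9 below and 32.6% with week 9 above. Patj, a scaffold of cell junctions, had a change of 1.24 on its brightest probe, but 0.13 and -0.09 on the others, and Wdr24, of the GATOR2 complex that relays amino acids to mTORC1, 1.01 (adjusted p = 0.0703 and 0.0703).

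Of 14 tested neutrophil genes, 3 were lower at an unadjusted p under 0.05, against 8.59% of all features. Their median was -0.42, and -0.34 over all 17 on the array. It was -0.19 without the first week 6 array and -0.76 without the second. After centring the signals per gene, the list's median lay at -0.12 and -0.29 on the week 9 arrays. On the week 6 arrays it lay at 0.51 and -0.07. Mpo, myeloperoxidase, had a change of -0.96 (adjusted p = 0.0901) and Camp, an antimicrobial peptide of granules, -1.09 (adjusted p = 0.181). Genes of cholesterol synthesis had a median of 0.03 over 14, glycolysis and hypoxia genes 0.10 over 16, and clock genes 0.05 over 15. Skeletal muscle genes, which mark tissue next to the joint, had a median of 0.14 over 10 tested members. Genes of MHC class I presentation had a median of 0.08 over 17 and genes stimulated by interferon-gamma -0.18 over 14, of which 3 were lower at an unadjusted p under 0.05. The interferon-gamma median was -0.09 without the second week 6 array and -0.03 without the second week 9 array.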
